A study of Mus musculus with 6 samples.

Results

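The 75 genes described here are the nuclear genes for mitochondrial ribosomal proteins that the arrays name Mrpl (large subunit, 46 genes) or Mrps (small subunit, 29 genes), among 19305 genes measured. They were picked by a rule on gene names, with earlier results of these data known. The rule took in 125 probes, and each gene is represented by its brightest probe over the 6 arrays. In every one of the 75 the probe used was well above background and unsaturated on 6 of 6 arrays. The arrays measured total RNA from J1, a mouse embryonic stem cell line, 96 hours after transfection with 1 of 3 siRNAs, with 2 arrays for each. The controls received a non-targeting siRNA (NT), and the other groups an siRNA against Thoc2 or against Thoc5, which encode subunits of the THO complex, a nuclear assembly that acts in the making and export of messenger RNA. All 3 groups shared the cell line, the ESGRO maintenance medium and the M10 medium used at transfection, and the labels name no other genetic change.

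The mitochondrial ribosome translates the few messenger RNAs of the mitochondrial genome, which encode core subunits of the respiratory chain and of ATP synthase. All of its proteins are made in the cytosol from nuclear genes and imported. Some descend from bacterial ribosomal proteins, and others were added in the mitochondrial lineage. In this set 47 genes belong to the first kind and 26 to the second, while Mrps36 and Mrps18b were placed in neither, although Mrps18b, like Mrps18a and Mrps18c of the first kind, descends from bacterial S18. The names do not always follow the location: the products of Mrps18a and Mrps30 sit in the large subunit, and the Mrps36 product is known as a component of the 2-oxoglutarate dehydrogenase complex.

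The siRNA targets were read first. The Thoc2 level, given throughout as log2 signal minus the 75th percentile of the array, was 1.32 and 1.43 with NT siRNA and 0.68 and 0.33 with Thoc2 siRNA, or 54.6% of NT (limma, adjusted p = 0.293). The Thoc5 level was 1.30 and 1.57 with NT siRNA and 0.34 and -0.0054 with Thoc5 siRNA, or 41.5% of NT (adjusted p = 0.128). Each target was lower on both arrays of its own siRNA than on both NT arrays. All 10 embryonic stem cell markers examined were well above background on 6 arrays, with a summed signal, relative to the 75th percentile, of 1030 to 1090 with NT, 830 to 875 with Thoc2 and 811 to 1020 with Thoc5 siRNA. Of 8 fibroblast markers 7 were kept, 4 of them well above background on 6 arrays. Their summed signal, to which the brightest marker adds most, was 1.82 to 2.38, 1.03 to 1.53 and 0.94 to 1.16 in the same order. Counted by gene, 3 of the 7 were below NT with Thoc2 siRNA and 5 with Thoc5 siRNA. Within shared slides (described next) their median relative to all genes was 0.217 and 0.375, so the sum gives no direction for the list. The arrays lay on 4 slides, of which 1 held NT replicate 1 and Thoc2 replicate 2, and another NT replicate 2 and Thoc5 replicate 2. Thoc5 replicate 1 was dimmer than the rest, with a 75th percentile of 306 against 716 to 905, and Thoc2 replicate 1 carried 880 flagged spots against 63 to 155. Nothing in the labels says that the arrays of a group came from separate transfections, so the p-values measure only the spread between these arrays.

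No mitochondrial ribosomal protein gene passed an adjusted p of 0.05 in any comparison, and neither did any other gene, so the percentage called was 0 in both directions. The smallest adjusted p among the 75 was 0.301 for Thoc2 siRNA against NT, 0.124 for Thoc5 siRNA against NT, 0.552 for Thoc5 against Thoc2 siRNA and 0.139 for the mean of both THO siRNAs against NT. At an unadjusted p under 0.05, Thoc5 siRNA gave 11 lower and 2 higher genes of the 75, beside 12% lower and 7.57% higher among all genes. The same count with Thoc2 siRNA was 2 lower and 1 higher, beside 6.71% and 7.9%. With both THO siRNAs it was 9 lower and 2 higher, beside 10.5% and 8.82%. A variance model with an abundance trend and robust weights, tried as an alternative, called Mrpl35, Mrpl50 and Mrpl36 lower with Thoc5 siRNA at adjusted p of 0.04, 0.0453 and 0.049. It called 2.02% of all genes lower and 1.34% higher in that comparison. With both THO siRNAs it called Mrpl35 lower (adjusted p = 0.0474), beside 2.02% of all genes lower and 1.37% higher, and with Thoc2 siRNA none of the 75, beside 0.0207% and 0.0104%. The lower calls thus depend on the variance model.

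The 4 lower and the 4 higher genes with the smallest p for both THO siRNAs against NT are shown by their probes, because the genes named below are measured through them. The first 30 of 60 bases are printed 5′ to 3′ as in the files, with G and C in capitals, and positions are those of the array files (build mm7). The first 4 genes were lower and the last 4 higher. The Mrps23 probe is given a span longer than its 60 bases. Which part of its transcript each probe matches was not determined, since no annotation of that build was used.
Mrpl35, chr6:71834019-71834078, minus strand: tGGCGatCCttaCCaGatGtaCCaCGatCG
Mrps24, chr11:5656421-5656480, minus strand: CCtCCaaGGtCGtGtaCaaGtaCatataaa
Mrpl36, chr13:70263558-70263617, plus strand: aaaCGatGttCttGtGtaGCaaCtatCCCa
Mrpl50, chr4:49526544-49526603, minus strand: aaaGttCCaCtGtGttttaCtCCataaGta
Mrps34, chr17:23079367-23079426, plus strand: atGaCaGGCtGCttGGtGtCattttCaGGC
Mrps26, chr2:130305939-130305998, plus strand: GCaCaGtGCttGCCtaGGGtCtGtGtaCtG
Mrpl38, chr11:116240999-116241058, minus strand: CCaCCtatGGaatCtaCtGaGaGaCtCaGt
Mrps23, chr11:88279787-88280019, plus strand: GtCaGaaaGCttttGatCtCttCaaCCCaa
The whole probes of the 4 lower genes hold 45%, 41.7%, 36.7% and 43.3% G and C, in the order printed. Those of the 4 higher genes hold 55%, 53.3%, 51.7% and 45%.

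Mrpl35, a large subunit protein with a bacterial counterpart, had a level of 3.36 and 3.50 on the NT arrays, 2.93 and 3.07 on the Thoc2 arrays and 2.75 and 2.57 on the Thoc5 arrays. The 3 groups did not overlap, and both THO groups lay below NT. The log2 difference from NT was -0.42 ± 0.16 (SE of the limma fit, 2 arrays a group) with Thoc2 siRNA, at an adjusted p of 0.337, and -0.77 ± 0.16 with Thoc5 siRNA, at an adjusted p of 0.124. The Thoc5 value corresponds to 58.8% of the NT level. Within the shared slides, where 1 array stands against 1, the differences were -0.29 for Thoc2 and -0.92 for Thoc5 siRNA. A further Mrpl35 probe well above background on all arrays gave -0.67 and -0.81, and the other, well above background on 5, gave 0.19 and -0.57, so only the Thoc5 difference had the same sign on all 3 probes.

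Mrpl36, the counterpart of the small bacterial protein L36, read 4.50 and 4.60 with NT, 4.05 and 4.25 with Thoc2 and 3.94 and 3.85 with Thoc5 siRNA. Both THO groups were below NT without overlap. In these bulk samples fewer cells of a kind and less RNA per cell cannot be told apart. The differences from NT were -0.40 ± 0.15 (adjusted p = 0.348) and -0.65 ± 0.15 (adjusted p = 0.14). Mrpl50, a protein of the large subunit without a bacterial counterpart, read 4.14 and 4.33 with NT, 3.86 and 4.01 with Thoc2 and 3.59 and 3.40 with Thoc5 siRNA. Its order of groups was the same as for Mrpl35, again without overlap. The differences were -0.30 ± 0.17 (adjusted p = 0.464) and -0.74 ± 0.17 (adjusted p = 0.134), and the other Mrpl50 probe gave -0.35 and -0.44. Mrpl50 also had the smallest unadjusted p of the 75 between the THO siRNAs, with Thoc5 below Thoc2 by a log2 difference of -0.44 ± 0.17 (adjusted p = 0.552).

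Mrps24, the counterpart of bacterial S3, which lines the entry of the messenger RNA channel, read 3.88 and 3.99 with NT, 3.52 and 3.51 with Thoc2 and 3.41 and 3.35 with Thoc5 siRNA. It was the small subunit gene with the smallest p among the lower ones in all 3 comparisons against NT. Its differences were -0.42 ± 0.14 (adjusted p = 0.301) and -0.55 ± 0.14 (adjusted p = 0.149). Mrps33, a protein specific to mitochondrial ribosomes, read 5.43 and 5.50, then 5.17 and 5.18, then 4.87 and 5.06. Its difference with Thoc5 siRNA was -0.50 ± 0.15 (adjusted p = 0.187), and its other 2 probes gave -0.31 and -0.23.

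Mrps34 and Mrps26 encode small subunit proteins specific to mitochondria, and neither passed the test. Mrps34 read 4.59 and 4.43 with NT, 4.96 and 4.98 with Thoc2 and 5.19 and 5.01 with Thoc5 siRNA. All 4 THO arrays lay above both NT arrays. The differences were 0.46 ± 0.15 (adjusted p = 0.301) and 0.59 ± 0.15 (adjusted p = 0.156), the latter 150.0% of the NT level. With normexp background correction the Thoc2 difference turned to -0.07, and the Thoc5 difference was 0.20. That correction moved the whole list: 71 of the 75 genes were then below 0 with Thoc2 siRNA and 68 with Thoc5 siRNA. The median of all genes was then 0.285 and 0.246. Mrps26 read 4.24 and 4.42 with NT, 4.70 and 4.55 with Thoc2 and 4.74 and 4.88 with Thoc5 siRNA, and its groups did not overlap with NT. Its differences were 0.29 ± 0.16 (adjusted p = 0.456) and 0.48 ± 0.16 (adjusted p = 0.216), and its other probe gave 0.23 and 0.33.

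Mrpl38, a large subunit protein without a bacterial counterpart, read 2.65 and 2.55 with NT, 3.0 and 3.13 with Thoc2 and 3.11 and 2.75 with Thoc5 siRNA. Its differences were 0.47 ± 0.18 (adjusted p = 0.358) and 0.33 ± 0.18 (adjusted p = 0.405). Its 3 probes did not share a sign: a further probe gave 0.36 and 0.45, and the remaining one -0.19 and -0.26. Mrps23, a small subunit protein specific to mitochondria, read 2.13 and 2.09, then 2.56 and 2.44, then 2.47 and 2.19, with differences of 0.39 ± 0.17 (adjusted p = 0.377) and 0.22 ± 0.17 (adjusted p = 0.534). A second Mrps23 probe, well above background on 5 arrays, read 2.05 and 2.25 with NT, 1.09 and 2.50 with Thoc2 and -6.39 and 2.36 with Thoc5 siRNA. In each THO group 1 array lay below and the other above both NT arrays, so no direction is given for that probe.

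**Figure D1:**
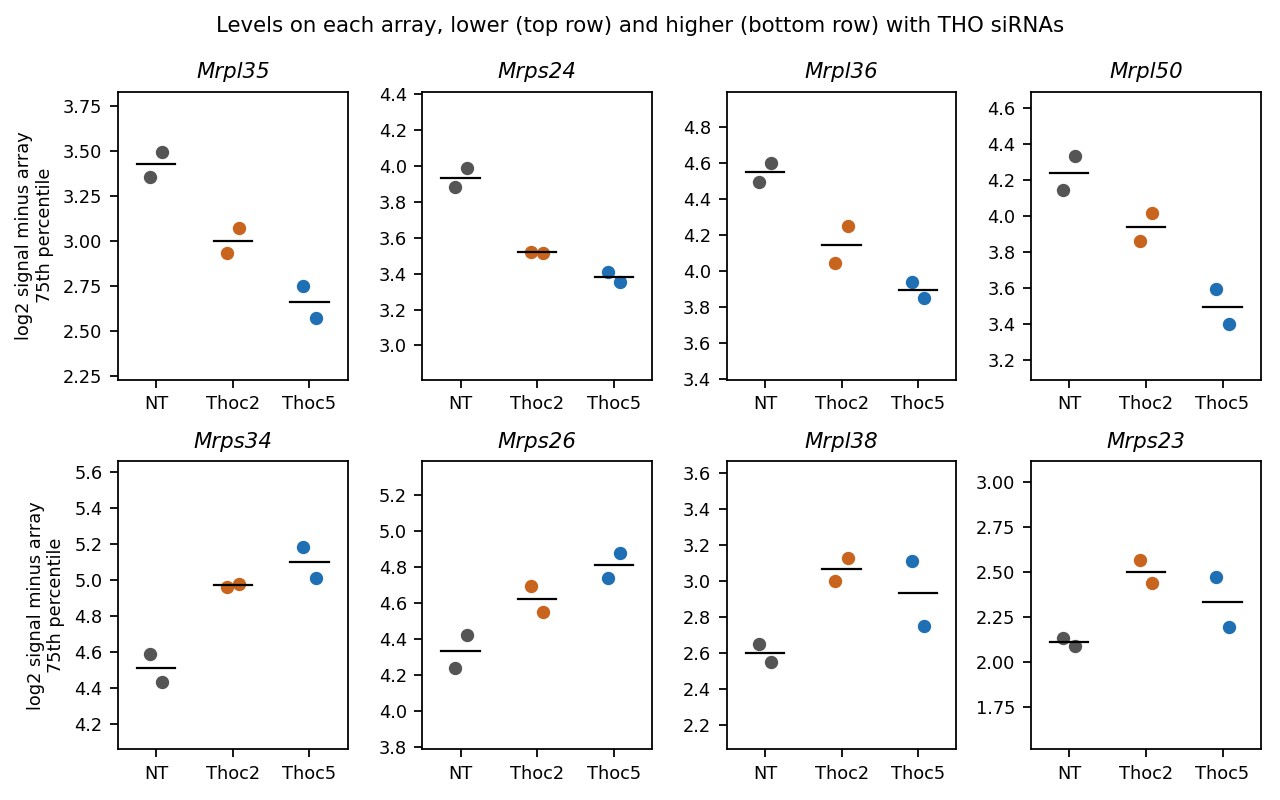
Level of 8 genes on each of the 6 arrays (y axis, log2 signal minus the 75th percentile of the array; x axis, siRNA). Points are arrays and bars are means of 2 arrays; all panels span the same range. In the top row all 4 THO arrays lie below both NT arrays, as for Mrpl35 from 2.57 to 3.07 against 3.36 and 3.50, and in the bottom row they lie above.

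Of the remaining large subunit genes with the smallest p, 5 were lower in both comparisons with NT and 1 was higher. Mrpl13 and Mrpl30, counterparts of bacterial L13 and L30, differed from NT by -0.35 and -0.44 with Thoc2 siRNA and by -0.37 and -0.38 with Thoc5 siRNA. Mrpl32, whose precursor is cut by an inner membrane protease before it joins the ribosome, differed by -0.24 and -0.55, Mrpl44, a member of the ribonuclease III family, by -0.36 and -0.56, and Mrpl49 by -0.23 and -0.47. The other 2 Mrpl44 probes gave smaller Thoc5 differences of -0.11 and -0.09, and the other 2 Mrpl49 probes gave 0.20 and 0.03. Mrpl54 was higher than NT by 0.30 and 0.16. The smallest adjusted p among these 6 genes was 0.172, for Mrpl32 with Thoc5 siRNA.

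In the small subunit, Mrps10, the counterpart of bacterial S10, differed from NT by -0.14 with Thoc2 and -0.40 with Thoc5 siRNA (adjusted p = 0.213 for the latter). Mrps14, the counterpart of S14, had the lowest difference of the 75 with Thoc2 siRNA, -0.98 ± 0.43 (adjusted p = 0.387), and this rested on 1 array: its level was 3.36 and 3.37 with NT, 1.78 on Thoc2 replicate 1 and 2.99 on Thoc2 replicate 2. On the shared slide the Thoc2 difference was -0.37. Mrps17 and Mrpl11, named after their values were seen, also differed by over 0.5 between the Thoc2 arrays. Elsewhere replicates were close, with a median gap between the arrays of a group of 0.12 (NT), 0.16 (Thoc2) and 0.14 (Thoc5) over the 75 genes, and Mrps2 was the remaining gene with a gap over 0.5, of 0.501 between the Thoc5 arrays.

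**Figure D2:**
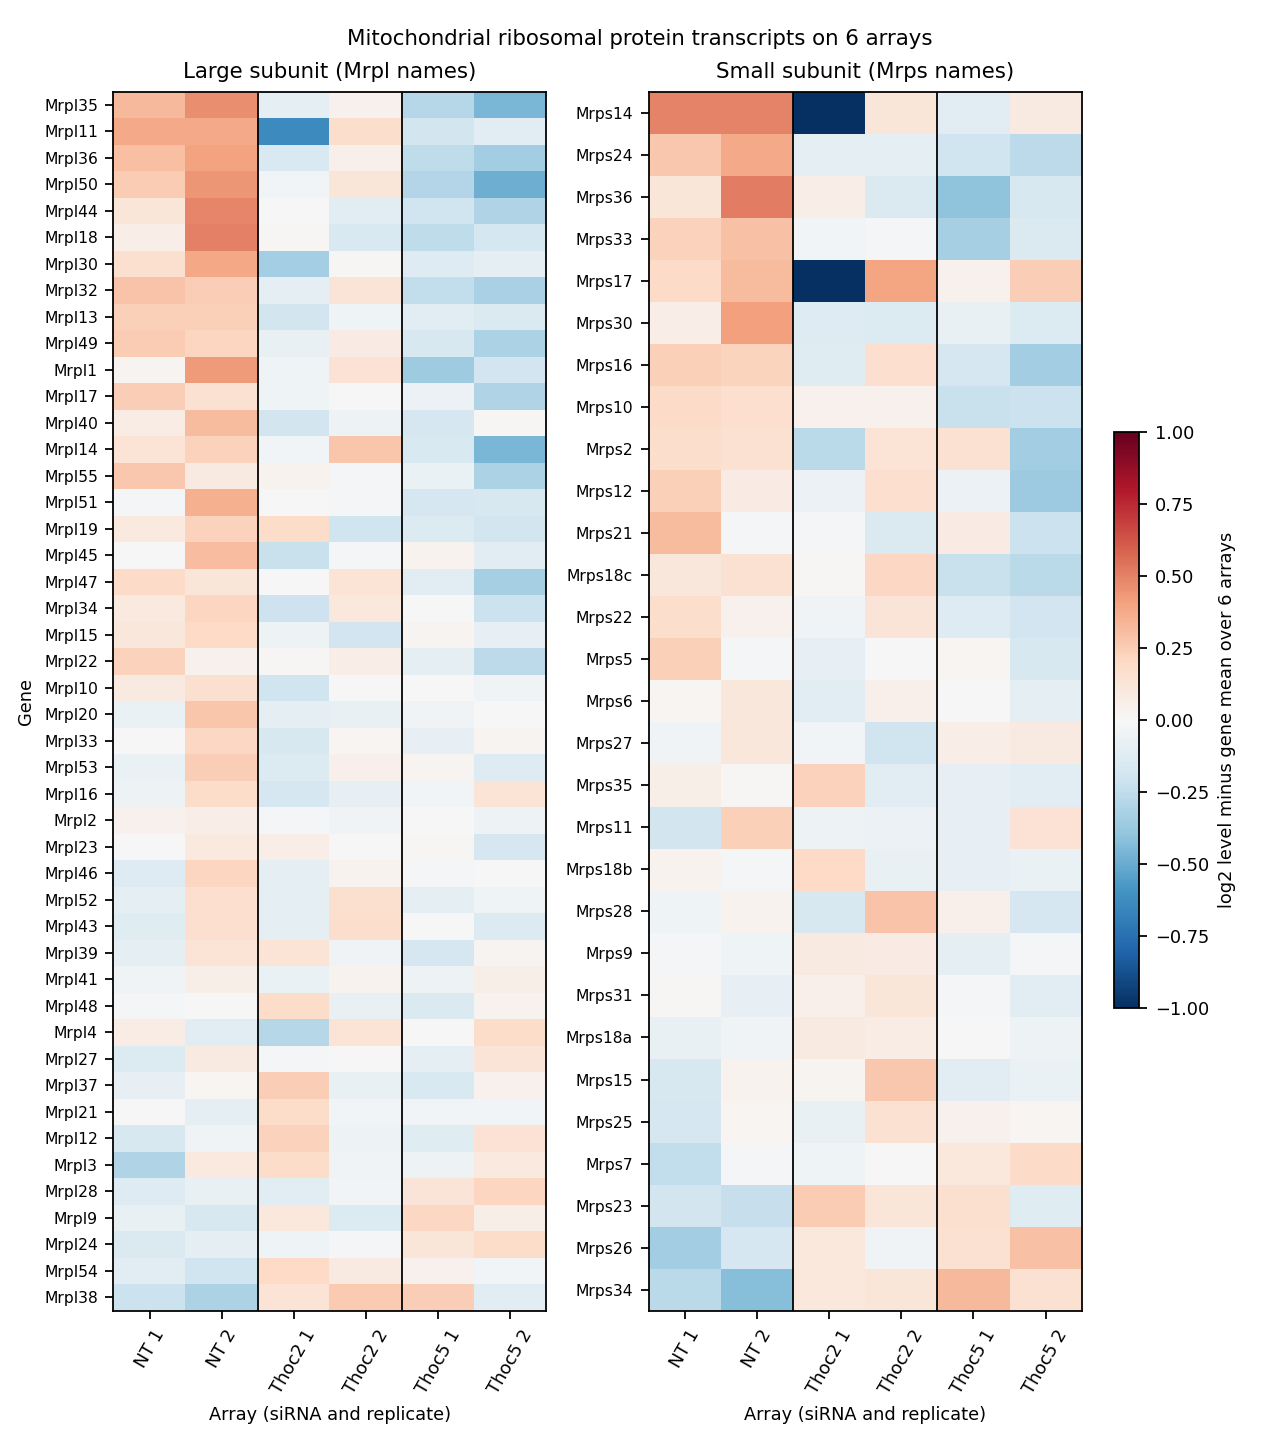
Level of each of the 75 genes on each array minus the gene's mean over the 6 arrays (colour, log2; rows are genes in order of the difference of both THO siRNAs from NT, columns are arrays; the scale ends at -1 and 1, and cells beyond it take the end colour). Mrps14 on Thoc2 replicate 1, at a level of 1.78 against 2.99 on replicate 2, and Mrps17 on the same array are the darkest cells.

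Mammals carry 3 descendants of bacterial S18, of which each mitochondrial ribosome holds all: Mrps18c in the place of S18, Mrps18b elsewhere in the small subunit and Mrps18a in the large one. Mrps18c read 3.28 and 3.32 with NT, 3.18 and 3.38 with Thoc2 and 2.94 and 2.90 with Thoc5 siRNA, so that only the Thoc5 arrays lay apart from NT. The differences were -0.02 ± 0.15 (adjusted p = 0.956) and -0.38 ± 0.15 (adjusted p = 0.263). Mrps18a differed by 0.14 ± 0.13 (adjusted p = 0.654) and 0.03 ± 0.13 (adjusted p = 0.923), and Mrps18b by 0.05 ± 0.16 (adjusted p = 0.889) and -0.08 ± 0.16 (adjusted p = 0.816). The second Mrps18b probe well above background on all arrays gave 1.11 and 0.75, unlike the brighter one. That probe was dim, at a mean level of -4.53 against 1.29 for the brighter one. It read -5.54 and -4.76 with NT and -3.47 and -4.61 with Thoc2 siRNA, so its arrays of a group lay far apart.

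Between the THO siRNAs, 0 of the 75 genes had an unadjusted p under 0.05, beside 6.72% of all genes lower and 2.34% higher with Thoc5 siRNA. The groups did not overlap for 28 genes lower and 8 higher with Thoc5 siRNA, beside 31.7% and 14.3% of all genes, and 50 had a difference below 0, beside 63.5% of all genes. After Mrpl50, the large subunit genes with the smallest p were Mrpl35 at -0.34, Mrpl14 at -0.43, Mrpl32 at -0.31, Mrpl47 at -0.29 and Mrpl28 at 0.24, and the small subunit ones were Mrps18c at -0.36, Mrps10 at -0.26, Mrps16 at -0.28 and Mrps33 at -0.21. Their smallest adjusted p was 0.572. Scaling each array by its median in place of its 75th percentile adds the same amount to every gene and moves the median of all genes from -0.11 to 0.23; relative to 0, 6 of these then changed sign (Mrpl35, Mrpl32, Mrpl47, Mrps10, Mrps16 and Mrps33).

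Of the 75 genes 50 had a difference below 0 with Thoc2 siRNA, beside 45.2% of all genes, 57 with Thoc5 siRNA, beside 56.5%, and 53 with both, beside 51.1%. Over the list, the large subunit had a median log2 difference from NT of -0.15 with Thoc2 siRNA, where the median of all genes was 0.05, and of -0.14 with Thoc5 siRNA, where that of all genes was -0.08. The small subunit medians were -0.08 and -0.11. Relative to all genes, the large subunit stood at -0.20 and -0.06 and the small subunit at -0.14 and -0.02, while the median of a list differed between arrays of a group with an SD of 0.09 for the large and 0.06 for the small subunit. Of the 75 genes 55 lay below the median of all genes with Thoc2 siRNA, 48 with Thoc5 siRNA and 53 with both. Without NT replicate 2 these counts were 44, 37 and 40. With quantile normalization they were 46, 39 and 40, and with normexp background correction 75 in each, so the shift of the list against other genes depends on an array and on the scaling. Within the shared slides the large subunit stood at -0.11 for Thoc2 and -0.31 for Thoc5 siRNA relative to all genes. Without the dim array, Thoc5 replicate 1, the Thoc5 values were -0.18 for the large and -0.14 for the small subunit. The embryonic stem cell markers had a median difference from NT of -0.34 with Thoc2 and -0.42 with Thoc5 siRNA, with 10 of 10 below 0 in each, and their part in the ribosomal protein values was not tested.

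**Figure D3:**
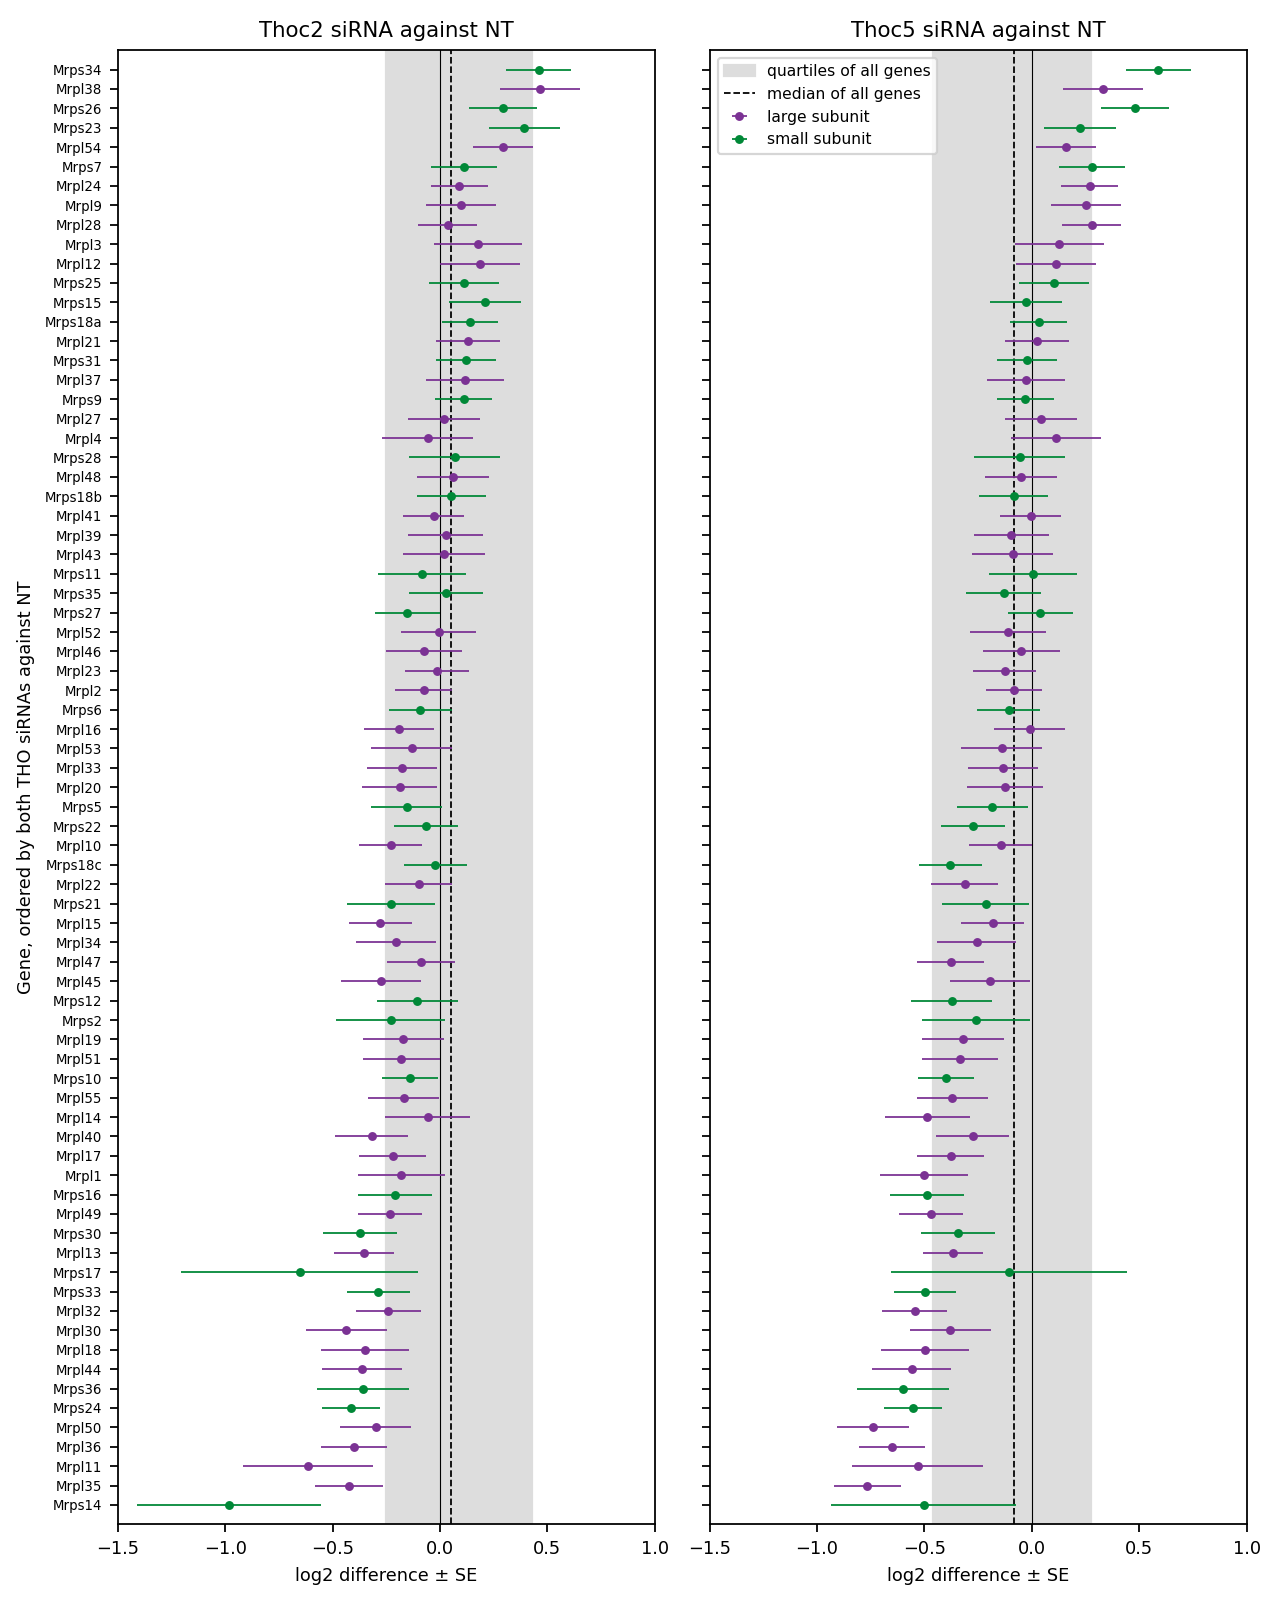
Log2 difference from NT of each of the 75 genes (x axis; points with bars are the estimate ± SE of the limma fit, 2 arrays a group; y axis, genes in order of the difference of both THO siRNAs from NT), for Thoc2 siRNA (left) and Thoc5 siRNA (right). The grey band runs from the lower to the upper quartile of all genes and the dashed line is their median, at 0.05 and -0.08. Most genes lie within the band. Mrpl35, Mrpl36 and Mrpl50 lie below it on both sides, as do others, among them Mrpl11, Mrpl44, Mrps14 and Mrps24.

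**Figure D4:**
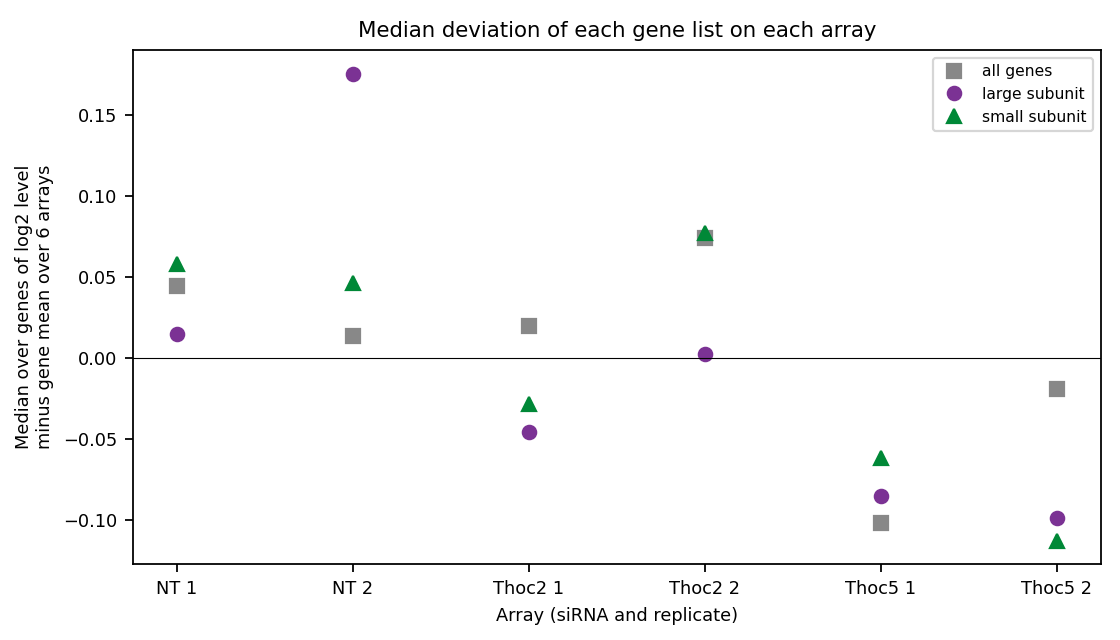
Median over genes of the level minus the gene's mean over the 6 arrays (y axis, log2) on each array (x axis), for all genes, the large subunit and the small subunit. NT replicate 2 has the highest large subunit median, 0.18, and NT replicate 1 is at 0.01.

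Groups that did not overlap with NT were counted for each gene. With Thoc2 siRNA 27 genes were lower and 9 higher on this count, beside 21.7% and 25.8% of all genes. With Thoc5 siRNA 37 were lower and 9 higher, beside 30.9% and 21.9%. With all 4 THO arrays against both NT arrays 24 were lower and 6 higher, beside 16.6% and 14.2%. The genes with a bacterial counterpart had a median difference of -0.16 with Thoc2 and -0.18 with Thoc5 siRNA, and those specific to mitochondria one of -0.02 and -0.09. The difference between these kinds was not tested.

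The differences among the 75 genes varied with the base composition of their probes, a relation looked for after the values were seen. Across the 75 genes the Pearson correlation between the G and C content of the probe and the difference from NT was 0.47 for Thoc2 and 0.51 for Thoc5 siRNA, where across all 19305 genes it was 0.14 and 0.05. These genes share arrays and labelling reactions and are not independent replicates. Of the 37 genes with a probe under 45% G and C, 33 were below 0 with Thoc5 siRNA, with a median of -0.32, and 30 with Thoc2 siRNA, with a median of -0.19. Of the 17 with a probe over 45%, 7 and 9 were below 0, with medians of 0.04 and -0.06. Within the shared slides the correlation was 0.40 for Thoc2 and 0.51 for Thoc5 siRNA, and for the difference between arrays of 1 group it was -0.26 (NT), -0.07 (Thoc2) and -0.07 (Thoc5). Where a gene had probes of unequal composition, all well above background on 6 arrays (22 genes), the one with most G and C gave the higher difference in 13 genes with Thoc2 siRNA, with a median gap to the one with least of 0.11, and in 12 with Thoc5 siRNA, with a median gap of 0.03. Gene length, on a log10 scale, correlated with the difference at 0.07 and -0.03.

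**Figure D5:**
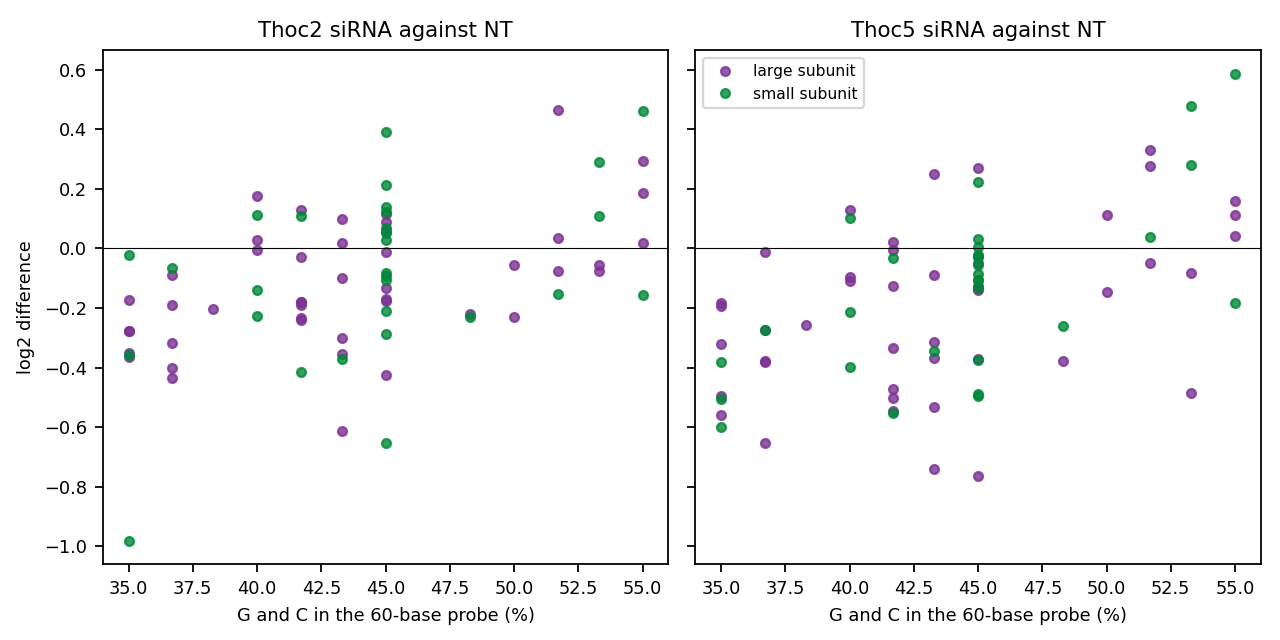
Log2 difference from NT (y axis) against the share of G and C in the 60-base probe (x axis, percent) for the 75 genes, with Thoc2 siRNA (left) and Thoc5 siRNA (right); each point is 1 gene. Points rise from left to right, with Pearson correlations of 0.47 and 0.51.

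Probes of 1 gene could disagree. In the 27 genes with more than 1 probe well above background on all arrays, the median range between probes of a gene was 0.25 for Thoc2 and 0.30 for Thoc5 siRNA, and in 13 and 9 genes the probes differed in sign. The range passed 0.5 with a change of sign in 5 genes for Thoc2 siRNA (Mrpl3, Mrpl38, Mrps2, Mrps5 and Mrps9) and in 5 for Thoc5 siRNA (Mrpl17, Mrpl3, Mrpl38, Mrpl49 and Mrps18b). The 4 Mrpl3 probes ran from -0.75 to 0.43 with Thoc2 siRNA, so no direction is given for Mrpl3, the counterpart of bacterial L3. The -0.75 came from a dim probe, at a mean level of -4.52. The other Mrpl3 probes gave 0.18, -0.13 and 0.43 with Thoc2 siRNA. With Thoc5 siRNA they gave 0.13, 0.17 and 0.40, and the dim one -0.67. Probes of differing sign were also dim for Mrpl17 (mean level -4.51), Mrps18b (-4.53) and Mrps9 (-3.02). Those of Mrps2, Mrps5, Mrpl38 and Mrpl49 were brighter, at mean levels from 0.27 (Mrpl38) to 3.15 (Mrpl49). For Mrps2, Mrps5 and Mrps9, counterparts of S2, S5 and S9, the brightest probe differed from NT with Thoc2 siRNA by -0.23, -0.16 and 0.11, and for Mrpl17 with Thoc5 siRNA by -0.38. The 3 Mrps2 probes shared a sign with Thoc5 siRNA but not a size, at -0.26, -0.26 and -2.01.

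The promoters of these genes were examined because nuclear genes for mitochondrial proteins are known targets of Nrf1 and of the ETS family factor Gabpa. RefSeq promoters (GRCm38.p6, 250 bases before to 50 after the start) were at hand for 66 of the 75 genes (all but Mrpl4, Mrpl13, Mrpl15, Mrpl19, Mrpl38, Mrpl54, Mrps28, Mrps34 and Mrps35), and all 6 motifs searched, on both strands, are given here. The ETS core CCGGAA occurred in 57.6% of the 66 genes and in 16.7% of 27025 genes, and CCGGAAG, which contains it, in 36.4% and 9.93%. The 27025 are all genes with a RefSeq promoter, whether or not they were measured here. No set matched for expression or base composition was compared, so the contrasts are not shown to be particular to these genes. The Nrf1 motif, read as a pair of GCGC stretches with NN between them, occurred in 19.7% and 7%, and its palindromic form with AT between them, contained in the former, in 4.55% and 1.07%. The YY1 core AAGATGGC occurred in 16.7% and 3.19%, and TATAAA in 7.58% and 15.7%. The ETS core was present in 57.1% of the genes below NT with both THO siRNAs and in 58.8% of those above. A match is a description of these letters and not evidence of binding.
Stretches of 100 bases ending at the base before the start are printed 5′ to 3′ on the gene's strand for 3 of the lower genes and 1 higher gene, with matches to the motifs searched in capitals.
Mrpl35, chr6:71823785-71823884, minus strand: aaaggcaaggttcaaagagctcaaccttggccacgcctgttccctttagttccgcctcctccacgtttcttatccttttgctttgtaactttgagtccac
Mrpl36, chr13:73330909-73331008, plus strand: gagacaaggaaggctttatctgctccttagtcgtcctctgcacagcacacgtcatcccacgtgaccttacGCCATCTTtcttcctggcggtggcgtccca
Mrpl50, chr4:49521084-49521183, minus strand: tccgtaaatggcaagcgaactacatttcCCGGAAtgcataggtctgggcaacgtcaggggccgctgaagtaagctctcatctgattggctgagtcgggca
Mrps26, chr2:130563657-130563756, plus strand: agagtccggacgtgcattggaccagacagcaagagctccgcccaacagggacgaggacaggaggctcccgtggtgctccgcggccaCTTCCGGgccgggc
The capitals mark the YY1 core in Mrpl36 and the ETS core in Mrpl50 and Mrps26, where the letters are those of the opposite strand in Mrpl36 and Mrps26. The Mrpl35 stretch holds none of the 6 motifs, and neither do the stretches of Mrps24 and Mrps23, which are not printed.

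Other genes of mitochondrial translation were read from lists. None of their members passed an adjusted p of 0.05 in any comparison. Of 8 ribosomal proteins of the mitochondrion with other names, 7 were below 0 with each THO siRNA. Mrpl57, a large subunit protein listed in the files as Mrp63, had the smallest p of these and read 5.60 and 5.48 with NT, 5.08 and 5.27 with Thoc2 and 5.07 and 4.92 with Thoc5 siRNA. Its differences were -0.36 (adjusted p = 0.386) and -0.55 (adjusted p = 0.183).

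Of 13 measured translation factors 6 were below 0 with Thoc2 siRNA and 8 with Thoc5 siRNA. Taco1, which activates translation of the Cox1 messenger RNA, had the smallest p, with differences of -0.74 (adjusted p = 0.238) and -0.76 (adjusted p = 0.139). Of 17 mitochondrial aminoacyl-tRNA synthetases, which load the tRNAs, 8 and 7 were below 0. Wars2, the tryptophan enzyme, differed by 0.74 (adjusted p = 0.23) and 0.58 (adjusted p = 0.173).

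Of 25 assembly and rRNA modification factors 14 and 15 were below 0. Ybey, an endoribonuclease, had the smallest p with Thoc2 siRNA at 0.61 (adjusted p = 0.236), and Mettl17, a factor of small subunit assembly, with Thoc5 siRNA at 0.81 (adjusted p = 0.145). Of 18 genes of mitochondrial DNA expression and its nuclear regulators 8 and 9 were below 0. Ssbp1, the mitochondrial single-stranded DNA binding protein, differed by -0.54 (adjusted p = 0.352) and -0.82 (adjusted p = 0.154). Of 79 nuclear-encoded respiratory chain subunits 38 and 47 were below 0, with medians relative to all genes of -0.05 and 0.01, and of -0.07 and -0.12 within the shared slides. Of 78 cytosolic ribosomal proteins 50 and 41 were below 0, with medians relative to all genes of -0.09 and 0.06, which turned to 0.0023 and -0.22 within the shared slides.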

How the data were processed

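Total RNA of 6 samples was hybridised to 1-colour Agilent arrays, per the labels' protocols with the Low Input Quick Amp kit. The deposited scanner files hold spot intensity: per the file headers, the processed signal after background subtraction. Feature Extraction is given as version 11.0 in the submitters' processing notes and as 9.5.3.1 in the file headers. A deposited series table of log2 values had a Spearman correlation of 1 with the signal on each array and a median of 5.82; it was read as quantile-normalized, and no header states its making or scale.

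Each level is the processed signal on a log2 scale, less its array's 75th percentile. Control spots and flagged outlier spots were left out, spots of a probe averaged, and a probe kept if well above background (at least 0.5 of its spots) on every array of at least 1 group, which left 28370 of 41174 probes and 19305 genes, each with its brightest probe. limma 3.58.1 (R 4.3.3; lmFit, eBayes) was fitted to all 6 arrays, with 3 residual degrees of freedom and Benjamini-Hochberg adjustment over all genes of a comparison (threshold 0.05, two-sided). The number of arrays limits the precision: with 2 arrays on each side, exact permutation gives no p under 0.333. The fit was also run on simulated arrays drawn independently, with no shared slides and no dim array. That run therefore does not cover those features of the data.

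The members and lists were chosen with earlier results of these data known. Genes named with values are, in each comparison, the 6 large and 4 small subunit genes with the smallest p, the genes whose probes disagree in sign by over 0.5, the 3 Mrps18 genes, the gene of each other list with the smallest p and the siRNA targets. Chosen after the values were seen were the probe composition and promoter searches, the respiratory chain and cytosolic ribosomal lists, Mrpl42 in the list of other names, and a correction to the bacterial or mitochondrial origin of Mrpl47, Mrpl55, Mrps24 and Mrps28.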

Additional observations from a re-analysis of the deposited data

How the results depend on the processing

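Each result was recomputed with other scalings, background correction, filters, probe rules, variance models and slide or replicate terms, and with each array left out. No mitochondrial ribosomal protein gene was called under any of them except with trend and robust variances, which called 3 with Thoc5 siRNA and 1 with both THO siRNAs, and 6, 647 and 655 of all genes for Thoc2, Thoc5 and both against NT. A filter on all 6 arrays, which tests fewer genes, called 538 and 481 genes for Thoc5 and both, none of them among the 75. Whether replicate numbers pair the arrays was not settled. Same-numbered arrays correlated in their deviations from the group means at -0.2 (NT with Thoc2), 0.14 (NT with Thoc5) and 0.22 (Thoc2 with Thoc5). In the values with NT, slide and replicate number cannot be told apart, because each NT array shared a slide with a THO array. A replicate block and a crossed replicate block, the latter chosen after seeing the data, called 0 genes in each comparison, and the replicate block gave a large subunit median minus that of all genes of -0.202 with Thoc2 siRNA. A slide term leaves no residual degrees of freedom as a fixed effect, so slide entered as a random block (correlation 0.28), which called 0. Of 306 summary values 264 were labelled the same and 42 moved. Many of the subunit medians could hardly move. Variance models leave them unchanged, and array median scaling shifts a list and all genes alike. Leaving out an array outside a comparison also leaves its differences nearly unchanged. The tally is therefore not a measure of stability. A subunit median was the same if it changed by less than the SD between arrays of a group. A count of genes past the threshold was the same if it stayed at 0, and no spread was used for it. Of the values of named genes 1225 kept direction and, where a p was computed, side of the threshold, while 57 changed sign. A further 5 passed the threshold with trend and robust variances. Values within the shared slides and of other probes had no p and were judged by sign alone. The cause of the changes was not tested.

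For Thoc2 siRNA, large then small subunit, the median of a subunit minus that of all genes was -0.0894 and -0.0203 with quantile normalization, -0.691 and -0.558 with normexp, -0.0821 and -0.0117 in the series table, -0.307 and -0.24 with no filter, and -0.106 for the large subunit within the shared slide. For Thoc5 siRNA it was -0.736 and -0.647 with normexp, -0.199 and -0.163 with no filter, -0.313 and -0.167 within the shared slide, and -0.152 for the small subunit with the mean of all kept probes. For both it was -0.0719 and 0.00588 with quantile normalization, -0.696 and -0.594 with normexp, -0.0705 and 0.0073 in the series table, and -0.292 and -0.219 with no filter. Between the THO siRNAs the small subunit was at 0.0563 with normexp. With 1 array left out, the lone array of a group being assumed to vary like the others, the ranges were -0.244 to -0.0749 (large) and -0.155 to -0.0476 (small) for Thoc2, -0.184 to 0.0281 and -0.137 to 0.0372 for Thoc5, -0.218 to -0.0139 and -0.142 to -0.0176 for both, and -0.0572 to 0.101 (small) between the THO siRNAs. Leaving out NT replicate 2 gave the value nearest to 0 in both subunits for Thoc2 and for both.

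Some named genes changed sign. With Thoc2 siRNA, array median scaling, which moves the median of all genes from 0.05 to -0.21, gave Mrpl3 -0.0801, Mrps9 -0.148, Mrps18a -0.118, Mrps18b -0.204 and Thoc5 -0.115. Normexp gave Mrpl54 -0.155, Mrps34 -0.0676, Mrpl3 -0.00941, Mrps9 -0.136, Mrps18a -0.406, Mrps18b -0.0751 and Thoc5 -0.327. It put 71 of the 75 genes below 0 in this comparison, with the median of all genes at 0.285. The mean of all kept probes gave Mrpl3 -0.0672, Mrps2 0.0185, Mrps9 -0.0922 and Mrps18c 0.124. Mrps18c was at 0.0156 with quantile normalization, 0.00926 with cyclic loess, 0.0232 in the series table and 0.0986 within the shared slide, where Mrps18b was at -0.113 and Thoc5 at -0.00221. Other probes gave Mrpl35 0.194, Mrpl38 -0.19, Mrps23 -0.351, Mrpl3 -0.134 and -0.746, Mrps2 0.607, Mrps5 0.144, Mrps9 -0.481 and Mrps18c 0.269. With Thoc5 siRNA, normexp gave Mrpl3 -0.196, Mrps18a -0.364 and Thoc2 -0.175, array median scaling Mrps18b 0.00291, the mean of all kept probes Mrps18b 0.334, and the shared slide Mrps18a -0.0111. Other probes gave Mrpl49 0.203 and 0.0257, Mrpl17 0.219, Mrpl3 -0.671, Mrpl38 -0.262 and Mrps18b 0.753. Between the THO siRNAs, array median scaling, which moves the median of all genes from -0.11 to 0.23, gave Mrpl35 0.00344, Mrpl32 0.039, Mrpl47 0.0559, Mrps10 0.0841, Mrps16 0.066 and Mrps33 0.135. With 1 array left out the ranges were -0.025 to 0.38 (Mrpl3), -0.0845 to 0.191 (Mrps18b), -0.119 to 0.0773 (Mrps18c) and -0.133 to 0.418 (Thoc5) for Thoc2 siRNA, and -0.0738 to 0.331 (Mrpl3) and -0.308 to 0.332 (Thoc2) for Thoc5 siRNA.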
